A study of Mus musculus with 5 samples.

Results

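The genes described here are 10 that build the chromosome axis of meiosis, hold its chromatids together, align the homologous chromosomes and start their recombination. They are Sycp2, Sycp3 and Hormad1 of the axis, Sycp1 and Syce1 of the synaptonemal complex, Smc1b, Rec8 and Stag3 of the meiotic cohesin, and Spo11 and Dmc1 of recombination. They were taken by symbol from a count table with 22869 gene symbols, with no filter on low counts, and all 10 were found. For each gene the transcript row with the highest mean count was used. The table was made from 5 RNA libraries of cells that had been cut by laser from the intervillus region of the proximal jejunum of mice at postnatal day 0. The intervillus region is the proliferating epithelium between the villi of the newborn gut. The 2 mutant libraries, numbered 4 and 6, came from mice of genotype Dnmt1 L/L; VillinCre, in which the Cre recombinase is driven by the Villin promoter of the gut epithelium, and only Ki67-negative areas were captured. The 3 control libraries, numbered 1 to 3, came from littermates of genotype Dnmt1 L/+, for which the labels name no Cre, and Ki67-positive areas were captured. Genotype and choice of area therefore cannot be told apart in any result given here. The labels do not state whether the libraries are separate mice, so a p-value reflects the spread among these 5 libraries, some or all of which may be technical.

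Meiosis is the pair of divisions that makes eggs and sperm. At its start, sister chromatids are bound by a cohesin with meiosis-specific subunits and are folded along a protein axis, the enzyme SPO11 breaks the DNA, and the recombinase DMC1 carries the broken ends into the homologous chromosome. The synaptonemal complex then zips the paired axes together. Outside the germ line most of these genes are not used, and some of them are known as genes whose promoters are kept methylated and silent in body tissues. Dnmt1, the gene deleted here, encodes the maintenance methyltransferase that restores CpG methylation on newly replicated DNA. DNA methylation itself was not measured in these libraries.

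Depth ranged from 8730268 to 13356901 counts per library with 1 row per gene. Dnmt1 was 116 ± 18.4 CPM in the controls (CPM, counts scaled to library size with TMM normalization; SD, n = 3) and 39.0 ± 1.99 CPM in the mutants (SD, n = 2). Its log2 fold change was -1.57 ± 0.17 (SE; edgeR Benjamini-Hochberg adjusted p = 2.52e-06). Mki67, the gene of the protein used to choose the areas, was 908 ± 131 CPM against 507 ± 2.18 CPM. Epithelial markers were present at a summed 5504 to 5948 CPM in the controls and 5304 to 5375 CPM in the mutants. The libraries also differed in sex: Xist had 66, 72 and 42 counts in the controls, compared with 10179 and 8277 in the mutants, and each of 4 Y-linked genes had at most 2 counts in a mutant library. Sex therefore goes with genotype here and cannot be told apart from it.

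The promoters of these genes are shown first, because the sites that DNMT1 acts on are CpG dinucleotides and the genes differ in how many they carry. RefSeq (mouse assembly GRCm38.p6; the submitters' processing notes name mm9) gave the 250 bases before the transcription start for 9 of the 10 genes, Spo11 being the exception. Of these, 6 are printed 5′ to 3′ on the strand of the gene with every CpG in capitals: first the 4 genes that rose in the mutants, then 2 CpG-rich ones that did not pass the test. The windows lie at chr3:95559427-95559676 (plus strand, Hormad1), chr7:140787855-140788104 (minus, Syce1), chr5:138280259-138280508 (plus, Stag3), chr14:55617916-55618165 (plus, Rec8), chr15:85131958-85132207 (minus, Smc1b) and chr3:102936101-102936350 (minus, Sycp1).
Hormad1: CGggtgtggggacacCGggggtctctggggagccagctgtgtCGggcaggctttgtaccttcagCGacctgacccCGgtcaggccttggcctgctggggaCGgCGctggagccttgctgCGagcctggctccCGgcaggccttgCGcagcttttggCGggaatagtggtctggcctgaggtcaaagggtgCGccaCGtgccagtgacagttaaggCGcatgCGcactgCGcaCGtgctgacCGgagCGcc
Syce1: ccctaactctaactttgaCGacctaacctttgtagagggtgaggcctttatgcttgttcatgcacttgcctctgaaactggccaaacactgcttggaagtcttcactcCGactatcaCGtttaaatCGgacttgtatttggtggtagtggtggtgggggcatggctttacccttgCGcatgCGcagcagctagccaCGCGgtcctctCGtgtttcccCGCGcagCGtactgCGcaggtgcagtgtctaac
Stag3: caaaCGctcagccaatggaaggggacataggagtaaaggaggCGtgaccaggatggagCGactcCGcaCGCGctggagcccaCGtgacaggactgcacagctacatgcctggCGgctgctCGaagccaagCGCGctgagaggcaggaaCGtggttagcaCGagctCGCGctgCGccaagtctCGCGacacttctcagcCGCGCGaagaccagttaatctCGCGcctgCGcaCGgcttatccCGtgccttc
Rec8: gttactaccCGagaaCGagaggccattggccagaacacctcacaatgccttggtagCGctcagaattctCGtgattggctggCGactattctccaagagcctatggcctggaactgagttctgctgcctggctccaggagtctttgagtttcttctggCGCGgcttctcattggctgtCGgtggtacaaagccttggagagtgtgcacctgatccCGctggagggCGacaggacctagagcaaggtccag
Smc1b: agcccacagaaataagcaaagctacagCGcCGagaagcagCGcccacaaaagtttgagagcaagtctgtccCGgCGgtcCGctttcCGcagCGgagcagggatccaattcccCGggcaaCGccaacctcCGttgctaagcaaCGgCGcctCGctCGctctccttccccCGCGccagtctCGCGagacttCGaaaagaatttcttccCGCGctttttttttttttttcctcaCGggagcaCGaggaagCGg
Sycp1: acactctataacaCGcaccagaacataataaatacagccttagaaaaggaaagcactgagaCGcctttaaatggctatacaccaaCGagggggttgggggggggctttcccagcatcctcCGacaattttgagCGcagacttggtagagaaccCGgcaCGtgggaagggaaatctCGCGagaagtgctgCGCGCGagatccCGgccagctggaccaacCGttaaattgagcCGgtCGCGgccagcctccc

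In these windows Stag3 had 26 CpG sites, Smc1b 25, Hormad1 19, Sycp1 17, Syce1 13, Sycp3 and Dmc1 12 each, Rec8 10 and Sycp2 7. The median over all 27025 RefSeq windows of this length was 6, with quartiles of 2 and 16, so each of the 9 windows was above the median. The share of windows with fewer CpG sites was 90.8% for Stag3 at the top and 53.5% for Sycp2 at the bottom. The genes that rose had 10 to 26 sites and those that did not pass had 7 to 25, so the ranges overlapped. Stag3 and Smc1b, subunits of the same complex, had nearly equal numbers; Stag3 passed and Smc1b did not, and the difference between their changes was not tested. The plot of CpG sites shows where each gene falls among all windows.

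**Figure D1:**
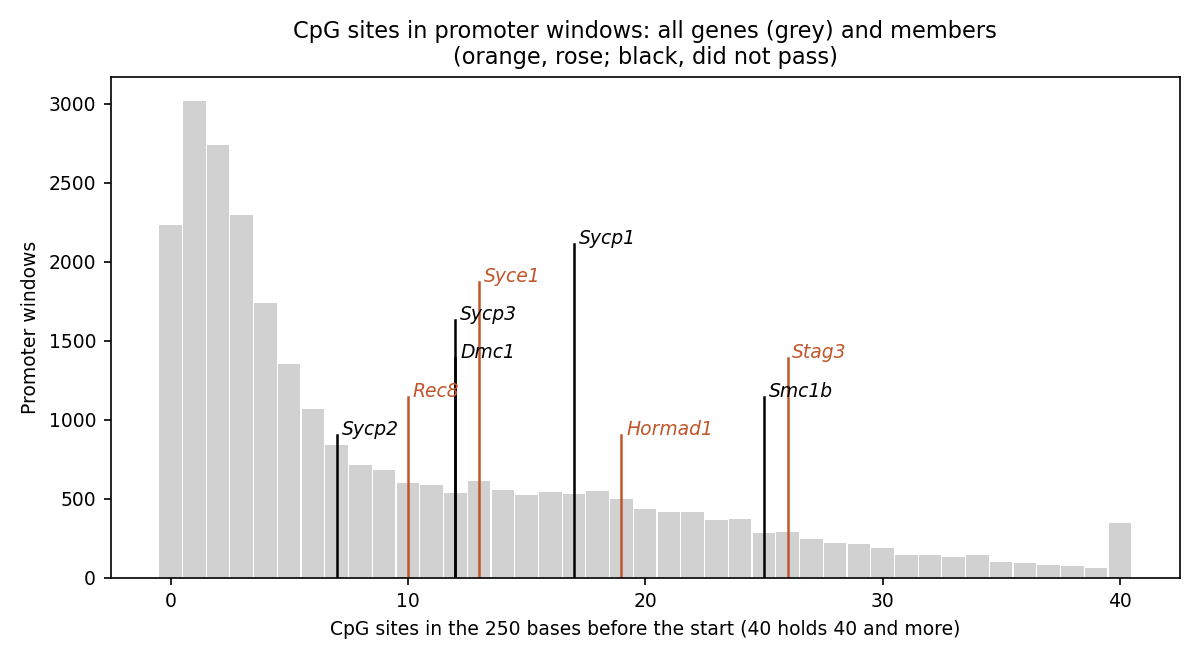
CpG sites (horizontal axis) in the 250 bases before the start of all 27025 RefSeq genes with a window (grey bars, number of windows on the vertical axis; the last bar holds 40 and more). Lines mark the meiotic genes at 7 to 26 sites (orange, rose; black, did not pass); their heights only separate the names.

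Sequence motifs were counted on both strands in the same windows. GCGGGA, the core of the motif of E2F6, a repressor known to act on meiotic genes in body cells, occurred in 5 of the 9 windows (Sycp3, Smc1b, Rec8, Dmc1 and Hormad1) and in 16.9% of all windows. The E-box CACGTG, the site of MYC, MAX and MGA proteins, occurred in 4 (Sycp1, Sycp3, Stag3 and Hormad1) and in 6.05% of all windows. The 8 bases TCTCGCGA, searched for after the windows had been read, occurred in Sycp1, Smc1b and Stag3 and in 0.925% of all windows. CACGTG reads the same on both strands, and the 8-base motif overlaps its own reverse complement, so 1 stretch can match on both. Each motif occurred both in genes that rose and in genes that did not pass. A match describes letters only.

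Of the 10 genes 4 rose in the mutants (Hormad1, Syce1, Stag3 and Rec8), 0 fell and 6 did not pass the test. At an unadjusted p under 0.05 there were 5, all higher, and the count of falls was 0 under each of 16 other settings, DESeq2 and limma-voom among them. A gene was counted as risen or fallen when edgeR's quasi-likelihood test on the deposited counts, with Benjamini-Hochberg adjustment over all 26019 transcript rows tested, gave an adjusted p under 0.05. Over all 20379 genes with a count, 4.85% rose and 3.01% fell by the same test. An unadjusted p under 0.05 was reached by 4146 of them, in either direction. The 10 genes were chosen with earlier results of these data known, so these shares describe the genes and are not an independent test. Both mutants lay above all controls in 5 of the 10 genes, where 17.6% of all genes did so, and below all controls in 0, where 18.0% did. The median log2 fold change was 1.04 over the 10 genes and -0.05 over all genes. Sycp2, Dmc1 and Spo11 had so few counts that they would fail edgeR's default filter, which 7 of the 10 passed. In bulk RNA of this kind, more cells using a gene and more RNA per cell cannot be told apart.

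**Figure D2:**
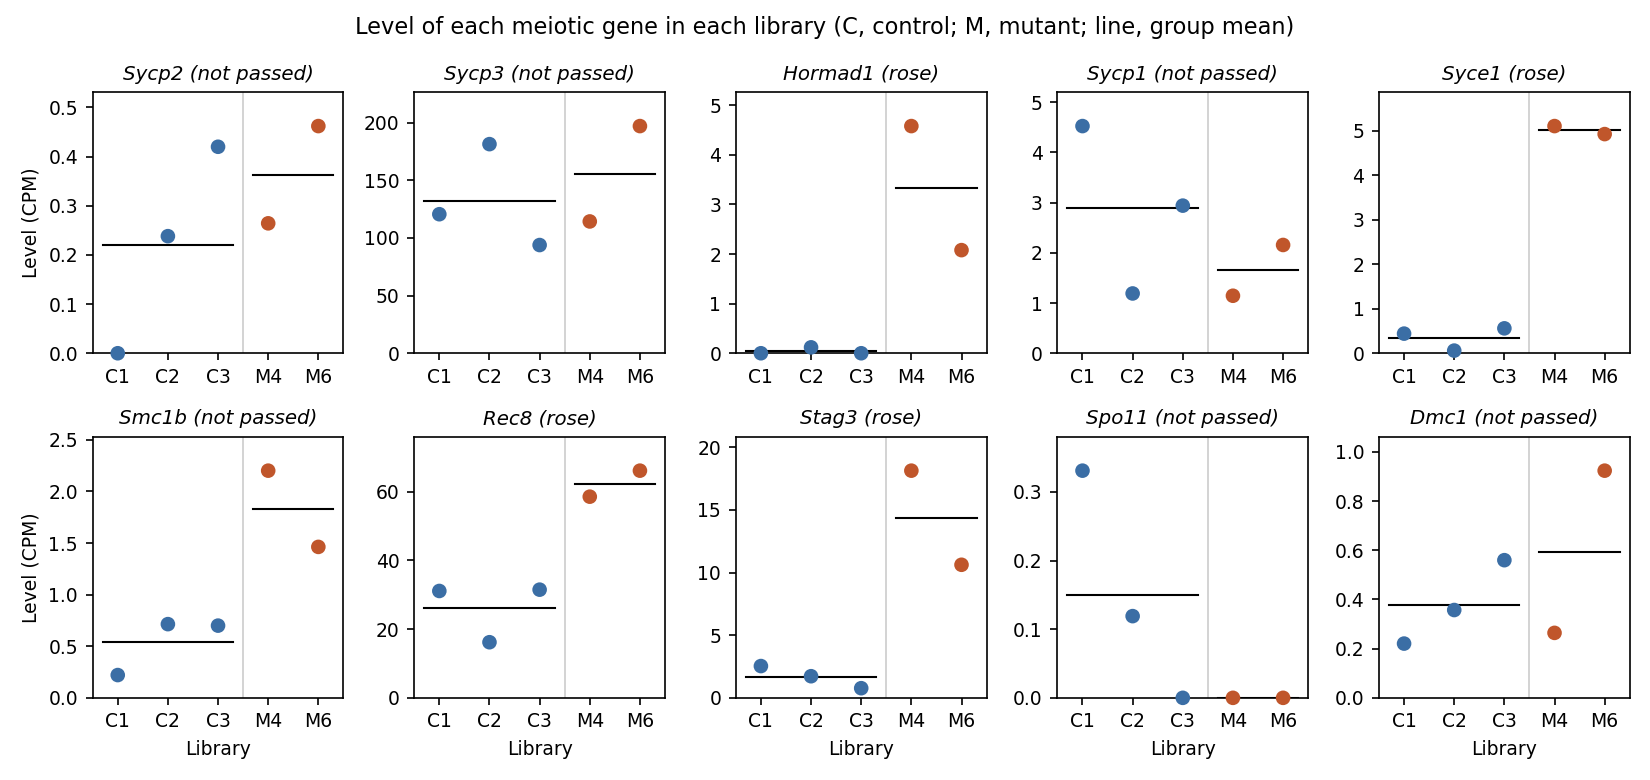
CPM (vertical axis, a separate linear scale for each gene) of the 10 genes in controls 1 to 3 (blue) and mutants 4 and 6 (orange), with the group means as lines. Hormad1, Syce1, Stag3, Rec8 and Smc1b have both mutants above every control, and the other 5 genes overlap between the groups.

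The axis gene that separated the groups most was Hormad1, which encodes a HORMA-domain protein that marks unpaired axes and is needed for DNA breaks and pairing. Controls 1 to 3 held 0, 2 and 0 counts, and mutants 4 and 6 held 52 and 27. The gene was thus nearly undetected in the controls, and both mutants were well above them, mutant 4 the higher. The level was 0.0397 ± 0.0687 CPM in the controls (SD, n = 3) and 3.33 ± 1.77 CPM in the mutants (SD, n = 2). The fitted log2 fold change was 6.06 ± 0.92 (SE; edgeR Benjamini-Hochberg adjusted p = 0.000118). With only 2 counts among the controls the ratio is imprecise: it was 79.9 with an exact 95% interval of 21.4 to 671, which covers counting error only, since amplified reads are not independent molecules. Without control 2 no count was left in the controls and the gene still passed (adjusted p = 0.00474). Without mutant 4 the log2 fold change was 5.42. The annotation also holds Gm15529, which matches Hormad1 at 97.9% over 994 bases, and the sources used here do not state how the authors' counting divided reads between such copies.

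Sycp3 encodes the filament protein on which the axis is built, and is widely used as a stain for meiotic cells. Its levels were 121, 181 and 93.8 CPM in the controls against 114 and 197 CPM in the mutants. The groups overlapped, and the gene was not low in the controls. The log2 fold change was 0.24 ± 0.22 (edgeR adjusted p = 0.592), and without mutant 6 it was -0.21. By deposited FPKM, which is scaled to transcript length, Sycp3 stood at 95.3 ± 34.9 in the controls, higher than 97.7% of the 20379 genes with a count. This level cannot be assigned to Sycp3 alone. In the GENCODE M21 annotation 660 of its 1264 exonic bases, or 52.2%, overlap exons of a phospholipid synthesis gene, Chpt1, on the opposite strand. The counting is not stated to use strand, so reads of the 2 genes in that stretch cannot be told apart. Chpt1 had 8741, 10082 and 5374 counts in the controls, compared with 3819 and 6772 in the mutants, and Sycp3 counts were 25.0%, 30.2% and 25.0% of these in the controls against 34.0% and 37.8% in the mutants. The Chpt1 log2 fold change was -0.18 ± 0.18 (edgeR adjusted p = 0.62). The other 9 genes share no exonic base with another annotated gene.

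Sycp2, the partner of Sycp3 in the axis, was barely detected, with 0, 4 and 6 counts in the controls, compared with 3 and 6 in the mutants. The groups overlapped, with a ratio of 1.82 in CPM (95% interval 0.654 to 4.98, for counting error only) and an edgeR adjusted p of 0.71. A difference of that size was not detectable at this depth.

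Of the synaptonemal complex genes Syce1 rose and Sycp1 did not pass. Syce1 encodes a protein of the central element, the midline of the complex. It had 8, 1 and 8 counts in the controls against 58 and 64 in the mutants, so that the lower mutant was well above the highest control and the mutants were close to each other. The level went from 0.354 ± 0.261 CPM to 5.02 ± 0.127 CPM, and the log2 fold change was 3.83 ± 0.53 (edgeR adjusted p = 7.2e-05). The ratio of summed counts in CPM was 14.5, with a counting interval of 8.70 to 25.7. Syce1 passed the test under each of the 16 alternative settings run, the deposited FPKM included.

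Sycp1 encodes the transverse filament that spans from the axis to the midline. Its counts were lower on average in the mutants, with 82, 20 and 42 in the controls, compared with 13 and 28 in the mutants. The groups overlapped, because control 2 lay below mutant 6, and the controls differed among themselves more than the mutants did. The log2 fold change was -0.79 ± 0.54 (edgeR adjusted p = 0.443). Transcripts of 64 other genes hold a stretch of 102 to 123 bases that matches Sycp1 at 95% identity or more, and the sources used here do not state how such reads were counted.

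The meiotic cohesin had 2 risen subunits and 1 that missed the threshold. Stag3 encodes the meiotic version of the STAG subunit that binds the ring. It had 46, 29 and 11 counts in the controls against 206 and 138 in the mutants. Every control was well under the lower mutant, and mutant 4 was the highest library. The level went from 1.68 ± 0.885 CPM to 14.4 ± 5.31 CPM, and the log2 fold change was 3.03 ± 0.35 (edgeR adjusted p = 7.3e-06). A stretch of 107 to 109 bases of Stag3 also occurs at 95% identity or more in transcripts of 34 other genes.

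Rec8 encodes the kleisin that closes the meiotic cohesin ring. Unlike the other risen genes it was already well expressed in the controls, at 31.1, 16.2 and 31.5 CPM, and it was at 58.6 and 66.1 CPM in the mutants. Both mutants were above every control, with control 2 the lowest library. The log2 fold change of 1.25 ± 0.21 (edgeR adjusted p = 0.000561) corresponds to 2.38-fold. On the length-scaled FPKM, Rec8 was at 12.4 ± 3.89 in the controls and 28.1 ± 0.251 in the mutants. These levels were higher than those of 76.2% and 89.8% of the genes with a count.

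Smc1b encodes the meiotic version of the SMC1 arm of the ring. Its counts of 4, 12 and 10 in the controls were all below the 25 and 19 of the mutants. The log2 fold change of 1.76 ± 0.63 had an unadjusted p of 0.0109 and did not pass after adjustment (edgeR adjusted p = 0.0953). The counting interval of the ratio was 2.06 to 5.79. The adjusted p stayed above the threshold under the 16 alternatives, from 0.0708 to 0.698.

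The 2 recombination genes were at the limit of detection. Spo11, the enzyme that makes the meiotic double-strand breaks, had 6, 2 and 0 counts in the controls and 0 in both mutants. A count of 0 allows up to 0.264 CPM in mutant 4 and 0.231 CPM in mutant 6. Set against a floor of 3 counts over both mutants, the controls' 8 counts gave a ratio of 1.32 in CPM. That ratio takes the 8 counts as exact, so it is no lower limit, and the difference did not pass (edgeR adjusted p = 0.415). Dmc1, the meiotic recombinase, had 4, 6 and 8 counts in the controls, compared with 3 and 12 in the mutants. In CPM mutant 4 lay among the controls and mutant 6 above them, with a ratio of 1.68 (edgeR adjusted p = 0.674). The 95% interval of the ratio, for counting error only, was 0.790 to 3.54. Without mutant 6 the log2 fold change was -0.46.

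The risen genes differed in rank as well as in level. Among the 989 genes that rose, ordered by log2 fold change, Hormad1 was at place 69, Syce1 at 131, Stag3 at 175 and Rec8 at 471. The median of those 989 was 1.19, so Rec8 rose by about as much as a typical risen gene and the other 3 by more. On the FPKM scale the order of levels in the mutants was Sycp3 (104 ± 32.9), Rec8 (28.1), Stag3 (2.74 ± 0.696), Syce1 (2.57 ± 0.0669) and Hormad1 (1.67 ± 1.42), and the highest of the other 5 was Sycp1 at 0.338 ± 0.249. Stag3, Syce1 and Hormad1 did not differ from each other beyond their spread. In the controls Stag3 was at 0.354 ± 0.174, Syce1 at 0.119 ± 0.0852 and Hormad1 at 0.0131, so Rec8 and Sycp3 were the only ones of the 10 with a mean of at least 1.

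The 4 rises were also computed from the deposited FPKM, which are not a fixed rescaling of the counts. For Hormad1 the FPKM were 2.67 in mutant 4 and 0.661 in mutant 6. With 1 added to each value before taking logs, the limma adjusted p was 0.0208 for Syce1 but 0.0744 for Stag3, 0.19 for Rec8 and 0.21 for Hormad1, so that 1 of the 10 rose. By that test 97 of all genes rose. Among genes with a mean FPKM of at least 0.1, 3 of the 8 meiotic genes left in the test rose: Syce1 (limma adjusted p = 0.00369), Stag3 (0.015) and Rec8 (0.0484). In the 13 alternatives that used counts, among them DESeq2, limma-voom and every fit without 1 library, all 4 genes passed and no other of the 10 did where it could be tested (DESeq2 gave Sycp2 and Spo11 no adjusted p). The plot of fold changes by setting shows the direction of all 4 to be upward in each.

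**Figure D3:**
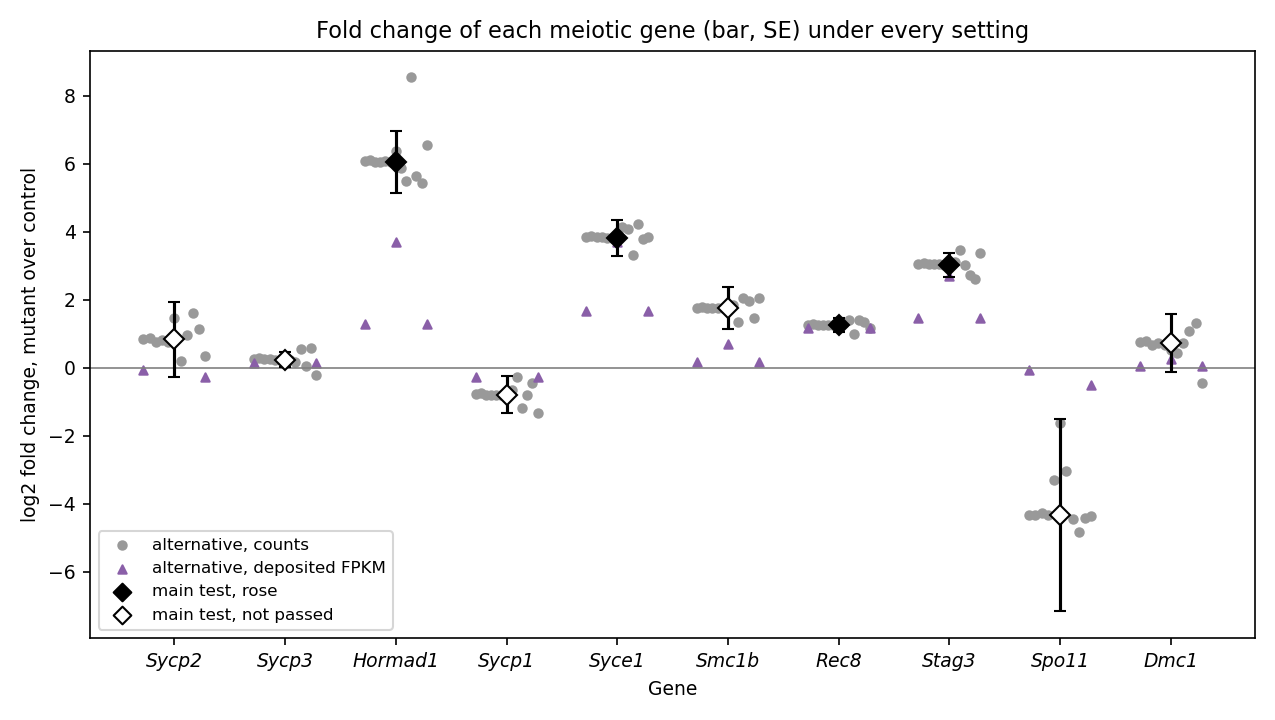
log2 fold change, mutant over control (vertical axis), of the 10 genes. Diamonds are edgeR values with SE bars (filled, rose), grey points the alternatives on counts and purple triangles those on deposited FPKM. The triangles, made with a constant added before logs, lie nearer to 0 than the diamonds for low genes. The part of the constant in this was not tested. Hormad1 and Spo11 have 0 or few counts in 1 group, so their fitted values are imprecise.

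Each meiotic cohesin subunit was set beside its counterpart in dividing body cells, as a percent of its FPKM. Rec8 was at 27.5%, 17.1% and 33.7% of Rad21, the kleisin of mitotic cohesin, in the controls, and at 102% and 98.9% in the mutants. In the mutants the transcripts of the meiotic kleisin were thus about as abundant as those of the mitotic one. Rad21 itself fell by 0.56 ± 0.13 on the log2 scale (edgeR adjusted p = 0.0101), so the ratio moved from both sides. Without control 1, mutant 4 or mutant 6 Rad21 no longer passed. Stag3 was at 2.62%, 1.41% and 0.895% of Stag1 in the controls but at 14.9% and 10.2% in the mutants, and against Stag2 the values were 3.49%, 2.10% and 1.60% and then 28.8% and 18.9%. Neither Stag1 nor Stag2 passed the test, and in both ratios every control was below the lower mutant. Smc1b was at no more than 1.24% of Smc1a in any library, and the groups overlapped.

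**Figure D4:**
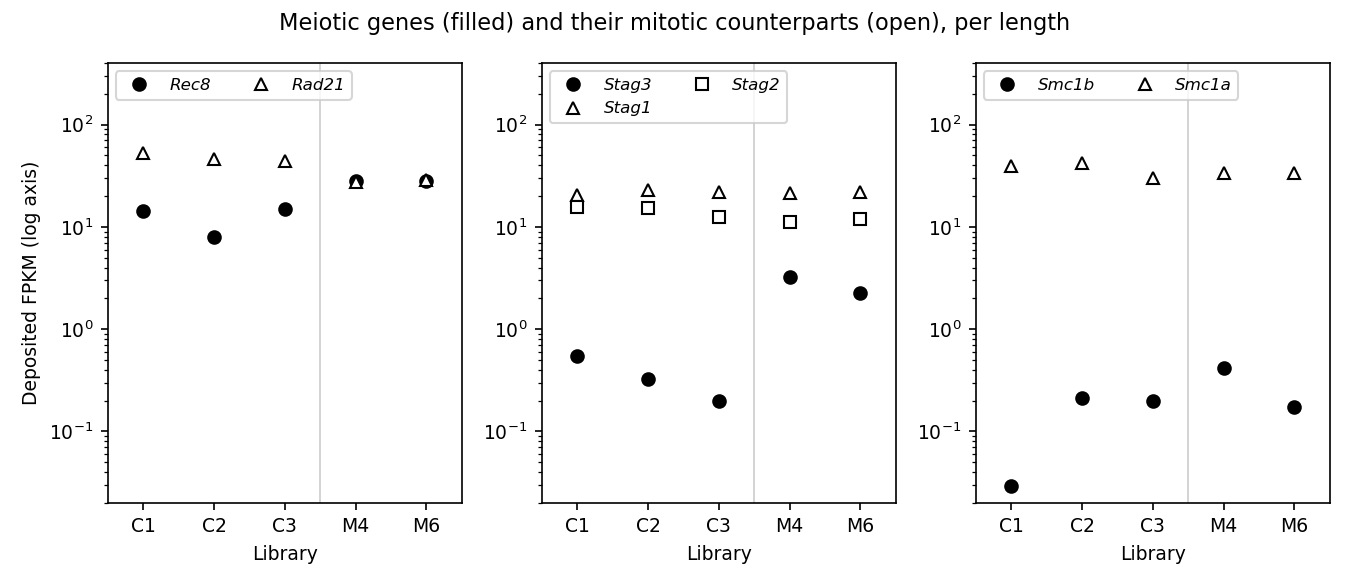
Deposited FPKM on a logarithmic axis of 3 meiotic genes (filled) and their mitotic counterparts (open) in each library (C, control; M, mutant). Rec8 reaches the level of Rad21 in both mutants, while Stag3 and Smc1b stay below their counterparts in every library.

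Of 14 mitotic cohesin and cohesin-regulator genes, 0 rose, 3 fell and 11 did not pass by edgeR, where 3.01% of all genes fell. At an unadjusted p under 0.05 there were 7, all lower, where 4146 of all 20379 genes had such a p in either direction. Beside Rad21, Cdca5, which encodes the sororin that protects cohesion, fell by 0.95 ± 0.21 on the log2 scale (edgeR adjusted p = 0.00536), and Sgo1, a protector of cohesion at centromeres, fell by 0.62 ± 0.18 (adjusted p = 0.039). Both mutants were below all controls in 11 of the 14, where 18.0% of all genes were so. The count of falls was 1 without control 1 and 0 without mutant 4 or without mutant 6, and Sgo1 did not pass without any of the 5 libraries. Of 10 proliferation markers 9 fell; the areas were chosen by Ki67, and the part of that choice in these falls was not tested.

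Other genes of meiosis were read from a list of 44, of which 39 were found and 38 had a count. Of the 38, 6 rose, 1 fell and 31 did not pass, or 15.8% risen and 2.63% fallen beside 4.85% and 3.01% of all genes. The median log2 fold change was 0.21. This list too was chosen with earlier results of these data known. The risen genes were spread over roles: 1 of 4 other synaptonemal complex genes, 3 of 7 strand exchange genes, 1 of 7 crossover genes and 1 of 3 regulators of meiotic entry. By edgeR 0 rose among 3 other cohesin genes, 2 HORMA-protein genes, 7 genes of break formation and 5 of telomere attachment. At an unadjusted p under 0.05 those groups held 1, 1, 0 and 0 genes, namely Sgo2a and Trip13, which were both lower in the mutants. Of all 20379 genes, 4146 had such a p.

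The strand exchange gene Mnd1, whose product helps DMC1 invade the homologous chromosome, was the highest of the 6 risen genes per length, at 47.5 ± 1.56 FPKM in the mutants. It had 52, 40 and 17 counts in the controls, compared with 611 and 621 in the mutants, and the log2 fold change was 4.52 ± 0.24 (edgeR adjusted p = 5.57e-11). A pseudogene, Mnd1-ps, matches it at 97.1% over 824 bases. Its partner Psmc3ip had 211, 216 and 180 counts against 194 and 114, a log2 fold change of 0.05 ± 0.25 that did not pass (edgeR adjusted p = 0.921). Hsf2bp, which is needed for meiotic recombination, had 5, 25 and 0 counts in the controls against 88 and 109 in the mutants (log2 fold change 3.71 ± 0.51; edgeR adjusted p = 6.24e-05). The groups did not overlap, but the controls ranged from none to 25, and with DESeq2 the gene did not pass. Tex15, a large protein needed for recombination in spermatocytes, had 9, 13 and 5 counts against 26 and 35 (log2 fold change 2.17 ± 0.55; edgeR adjusted p = 0.017). It no longer passed without control 1, control 3, mutant 4 or mutant 6.

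Tex12, a central element protein like Syce1, had 11, 27 and 14 counts in the controls, compared with 110 and 189 in the mutants (log2 fold change 3.52 ± 0.36; edgeR adjusted p = 1.83e-06). Of the other central element genes, Syce2 had 272, 316 and 152 counts against 149 and 210, and Syce3 had 28, 29 and 24 against 11 and 6. Neither passed (edgeR adjusted p = 0.97 and 0.261), and for Syce3 both mutants lay below all controls. Ccnb1ip1, also called Hei10 and needed for crossovers, had 0 counts in each control and 50 and 51 in the mutants. It was 68.1-fold higher against a floor of 3 counts over the controls, with the mutant counts taken as exact. It shares 233 of its exonic bases with the ribozyme gene Rpph1 on the same strand. Stra8, the retinoic acid target that starts meiosis, had 0 counts in each control and 15 and 34 in the mutants. Against the same floor, with mutant counts again taken as exact, it was 33.0-fold higher (edgeR adjusted p = 0.00111). The gene that fell was Sgo2a, the shugoshin that protects Rec8 cohesin at centromeres, with 628, 639 and 501 counts against 278 and 275 (log2 fold change -0.66 ± 0.17; edgeR adjusted p = 0.021). Both mutants were below all controls, but the gene no longer passed without control 1, mutant 4 or mutant 6, and 35.0% of its exonic bases are antisense to Kctd18.

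**Figure D5:**
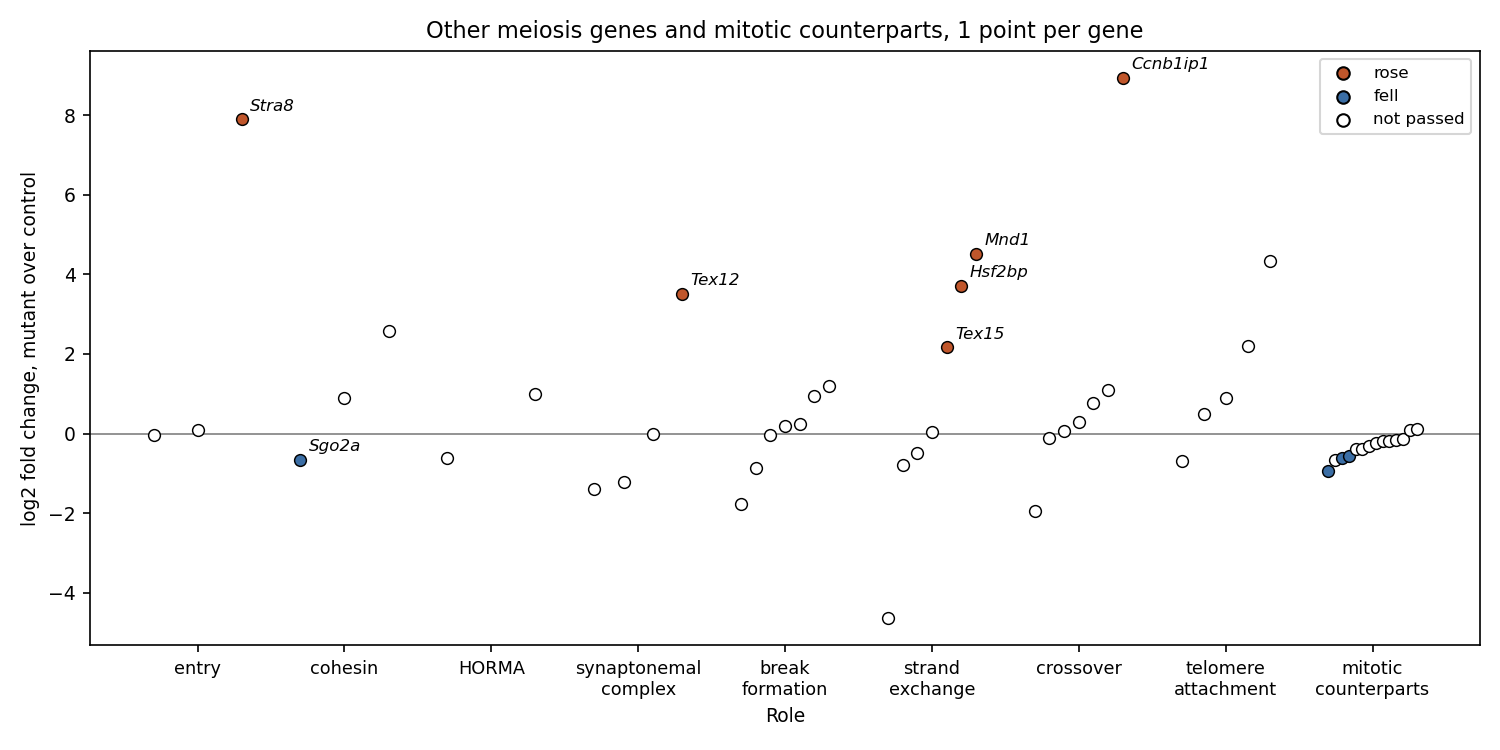
log2 fold change, mutant over control (vertical axis), of the other meiosis genes with a count and of their mitotic counterparts, 1 point per gene, grouped by role. Orange points rose and blue points fell; Stra8 and Ccnb1ip1 had 0 counts in all controls, so their fitted heights are not bounds.

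Markers of germ cells at several stages were read beside these genes. Over all genes 4.85% rose and 3.01% fell by edgeR. Of 20 germ cell stage markers 13 had a count, 1 rose, 0 fell and 7 were at 0 in every library, among them Pou5f1, Sohlh1, the protamines Prm1 and Prm2 and the egg coat genes Zp1 and Zp3. Ddx4, the helicase of germ cells in both sexes, had 8, 8 and 3 counts in the controls against 3 and 2 in the mutants. Of the 13 markers with a count, 9 had a positive log2 fold change, and the median was 1.56. Both mutants lay above all controls in 4 and below in 0, where 17.6% and 18.0% of all genes did so. At an unadjusted p under 0.05 there were 2, both higher, where 4146 of all 20379 genes had such a p. Most of these counts were low, and 1 of the 13 passed edgeR's default filter. The summed level of the list was 2.08 to 3.29 CPM in the controls and 4.85 to 9.33 CPM in the mutants, or 1.05 to 1.93 CPM and 2.39 to 2.73 CPM without Gdf9. The marker that rose was Gdf9, an oocyte growth factor, with 18, 8 and 32 counts against 75 and 32 (log2 fold change 1.90 ± 0.53; edgeR adjusted p = 0.029), and it no longer passed without control 1, control 2 or mutant 4, with limma-voom or on deposited FPKM.

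Markers of other cells of the gut wall were read in the same way. Over all genes 4.85% rose and 3.01% fell by edgeR, and 4146 of 20379 had an unadjusted p under 0.05. Of 10 mesenchyme and smooth muscle markers 7 rose, and their summed level was 1095 to 1191 CPM in the controls and 1680 to 1799 CPM in the mutants. Immune markers summed to 112 to 150 CPM against 247 to 275 CPM, with 1 of 8 risen. That gene, Csf1r, made most of the difference: without it the sums were 70.8 to 79.2 CPM and 87.7 to 101 CPM. Markers of enteric neurons and glia summed to 20.9 to 31.9 CPM against 51.3 to 54.3 CPM, with 1 of 7 risen (S100b), and those of endothelium to 125 to 154 CPM against 157 to 174 CPM, with 0 of 5 risen by edgeR and 1 at an unadjusted p under 0.05. Within the epithelial list Krt18 rose, Cdx2 fell and 8 did not pass. The part of these cells, of sex and of the choice of area in the rises was not tested.

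The nearest protein-coding genes with a row in the table were read on either side of each risen gene. They were Ctss and Golph3l for Hormad1, Cyp2e1 and Zfp941 for Syce1, Gal3st4 and Gpc2 for Stag3, and Irf9 and Ipo4 for Rec8. Of the 8, 0 passed, with log2 fold changes from -1.76 to 0.21 and edgeR adjusted p from 0.116 to 0.981. Over all genes 4.85% rose and 3.01% fell. At an unadjusted p under 0.05 there was 1, Golph3l, which was lower, where 4146 of all 20379 genes had such a p. Both counts are near the shares of all genes, so they do not set the neighbours apart from other genes. Cyp2e1 had 1 count in the controls and 0 in the mutants, and Zfp941 8 and 3, so a difference in those 2 was not detectable at this depth.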

How the data were processed

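RNA was measured in 3 control and 2 mutant libraries, grouped by their titles and genotype labels. Per the labels' protocols, tissue was fixed in methacarn and embedded in paraffin, 2.3 to 33.3 ng of RNA per sample went into Ovation RNA-Seq V2 amplification, and single reads of 100 bases were sequenced. The deposited files hold raw read counts for 28644 RefSeq transcripts and, in a second table, the authors' FPKM. Per the submitters' processing notes, mm9 and edgeR were used; not given in the sources used here are the aligner, the counter, any strand setting and the versions. In 41 rows a spreadsheet date replaced the symbol and was renamed by transcript.

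Counts of rows with at least 1 count (26019) were tested in R 4.3.3 with edgeR 4.0.16 (TMM, glmQLFit and glmQLFTest, 3 residual degrees of freedom, Benjamini-Hochberg adjustment over all rows). The script was checked on simulated counts. The standard error of a log2 fold change is its size over the square root of F. Deposited FPKM were tested with limma 3.58.1 as log2(FPKM + 1), which understates changes of low genes. DESeq2 1.42.0 and limma-voom were alternatives, with 16 in all. Exonic overlaps and near copies (at least 95% identity over 100 bases) came from GENCODE M21 and BLAST+ 2.17.0. Between libraries of a group the chi-square per gene was 9.94 to 25.2, above sampling noise, so no pair was counted as 1 library. That measure compares the spread with read sampling only, so it cannot tell separate mice from repeat libraries of 1 mouse. The 10 genes and all lists were chosen with earlier results of these data known. Beside the 10, at most 4 genes of a list that passed, those with the lowest adjusted p, are named with values; Psmc3ip, Syce2, Syce3, Trip13, Ddx4 and the neighbouring genes were named after their values were seen. A gene of 1 list is not reported here.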

Additional observations from a re-analysis of the deposited data

How the results depend on the processing

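Hormad1, Syce1, Stag3 and Rec8 rose in all 13 alternatives on counts, and 4 of the 10 genes rose in each. On deposited FPKM fewer passed. With a pseudocount of 1, 1 of the 10 genes and 1 other meiosis gene rose, 0 other meiosis genes and 0 mitotic counterparts fell, and 97 genes in all rose and 13 fell. With a pseudocount of 0.1 these counts were 1, 3, 0, 1, 155 and 36. With a mean FPKM of at least 0.1, 3 of the 10 genes and 5 other meiosis genes rose, 0 other meiosis genes fell, and 271 genes in all rose and 99 fell. With edgeR's legacy fit 2 other meiosis genes and 935 genes in all fell. The cause of these changes was not tested.

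Leaving out 1 library at a time, 401 to 952 genes rose and 158 to 536 fell, 0 to 1 other meiosis genes fell and 0 to 3 mitotic counterparts fell; without a mutant, the lone mutant library is assumed to vary like the controls. Signs changed in genes that did not pass: Sycp2 was at -0.0591 and -0.279 (log2) on FPKM with pseudocounts of 1 and 0.1, and leaving out 1 library put Sycp3 between -0.21 and 0.58 and Dmc1 between -0.46 and 1.31, the lower ends without mutant 6. Without mutant 4 the median of all genes was -0.10, the furthest from 0 of any setting. No paired analysis was possible because the control numbers 1 to 3 and the mutant numbers 4 and 6 share no replicate number. With 2 mutant libraries and under 20 counts per group, Sycp2, Dmc1 and Spo11 could not be resolved at this depth.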
